A study of Mus musculus with 6 samples.

Results

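The genes examined were 10 members of the ETS family of transcription factors, *Ets1*, *Ets2*, *Fli1*, *Elf1*, *Elf2*, *Elf4*, *Spi1*, *Spib*, *Gabpa* and *Etv6*, chosen by symbol among the 23420 genes in the files. *Spi1*, which encodes PU.1, was listed under its older symbol *Sfpi1* and was matched through the RefSeq synonyms, so that all 10 were found. Their expression was compared between 3 CpG-stimulated and 3 unstimulated samples of bead-purified splenic B cells from wild-type BALB/c mice of 7 to 11 weeks. The stimulated cells had been cultured for 4 hours with 10 μg/mL of CpG ODN 1826, a synthetic DNA that activates TLR9, at 10 M cells per mL, and the other cells had been left without it. No allele was altered in either group. The samples were numbered 1 to 3 in each group, with numbers 1 and 2 labeled female and number 3 male, and the labels name 3 mice without tying each sample to a mouse, so that p values measure the spread between these samples only. Values are log2 CPM, the log2 of counts scaled to library size (CPM), as the authors deposited them. They were also quantile normalized, which gives the samples near-equal distributions.

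ETS proteins share a DNA-binding domain that recognizes sites built around the bases GGAA, and much of their specificity comes from the proteins they bind beside. In B cells PU.1 and Spi-B pair with IRF4 and IRF8 on composite sites, and several family members act at the genes of the B cell receptor. Ets1 is known for restraining the step from resting B cell to plasma cell, GABPα for housekeeping and mitochondrial genes, and Etv6 as a repressor.

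After CpG stimulation 8 of the 10 genes were lower and 2 were higher by limma (Benjamini-Hochberg false discovery rate, FDR, under 0.05). *Ets1* decreased most, to 16.9% of its unstimulated level, followed by *Fli1*, *Elf1*, *Elf4*, *Ets2*, *Spi1*, *Elf2* and *Spib*. *Etv6* and *Gabpa* were the genes that increased. Of the 11233 genes tested, 36.7% were called lower and 37.6% higher, so a call in itself was common in this comparison. With a log2FC under -1 also required, 4 of the 10 genes were called lower (*Ets1*, *Fli1*, *Elf1* and *Elf4*), where 15.3% of all genes were. *Etv6* alone passed a log2FC over 1 in the other direction, as 15.8% of all genes did. The median log2FC of the 10 genes was -0.90, against 0.0033 for all genes tested. The groups did not overlap in any of the 10 genes, lower with CpG in 8 and higher in 2. Among all genes tested this was seen in 38.6% and 39.1%, respectively.

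The samples showed the markers of their labeled cell type. Summed B cell markers lay between 11.83 and 12.05 log2 CPM without and between 11.23 and 11.43 with CpG. Of the 7 B cell markers, 4 were called lower with CpG and 2 higher. All 7 B cell markers were above the value of 10 reads, with a median of 9.05 log2 CPM, whereas 0 of 5 T cell and 0 of 4 NK cell markers were, averaged over the 6 samples, and *Nkg7* was at the level of no reads in both group means. Summed T cell markers lay between -1.48 and -1.01 without and between -1.29 and -0.95 with CpG, and NK cell markers between -2.28 and -1.72 and between -0.55 and 0.49, where *Klrb1c* went from a mean of -4.65 to -0.13. Myeloid cells express *Spi1* at high levels, so their markers matter here. Of 8 such markers 5 were above 10 reads' worth, led by *Ly6c2* (means of 3.15 without and 2.85 with CpG), and their summed level lay between 4.12 and 4.54 log2 CPM in unstimulated and between 4.06 and 4.53 in stimulated samples. Megakaryocytes and endothelial cells express *Fli1*. All 4 megakaryocyte and platelet markers were above 10 reads' worth, with a summed level of 2.73 to 3.29 without and 2.57 to 2.75 with CpG, and of 4 endothelial markers only *Pecam1*, at a mean of 6.91, was, with summed levels of 6.64 to 6.72 and 7.06 to 7.29. Plasma cell markers summed to 9.69 to 10.21 without and 8.87 to 9.23 with CpG, mostly *Jchain*. The summed pDC markers, mostly *Tcf4*, which B cells also express, went from between 8.09 and 8.15 to between 6.97 and 7.00. Erythroid markers ranged from 8.72 to 11.93 and from 8.63 to 12.28, highest in sample 2 of both groups. The part of other cells in the results on ETS genes was not tested. In bulk samples a lower value can mean fewer cells of a type or less RNA per cell, and these cannot be told apart.

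**Figure D1:**
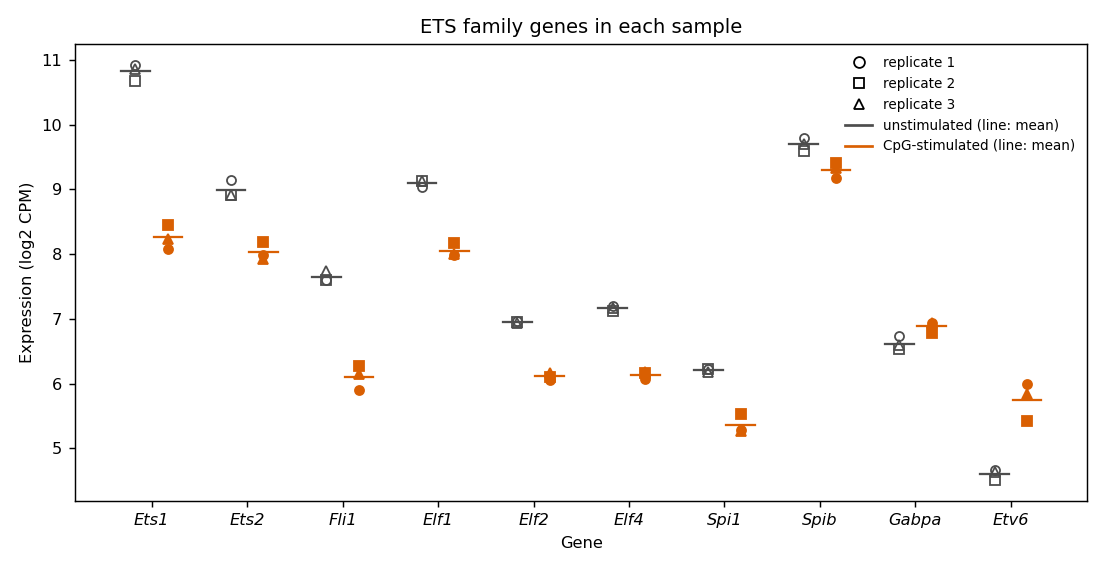
Expression of the 10 ETS genes in each sample, in log2 CPM (vertical axis), by gene (horizontal axis); open gray symbols are unstimulated and filled orange symbols CpG-stimulated samples, the symbol shape gives the replicate number, and lines are group means. *Ets1* went from a mean of 10.82 to 8.26, and the groups lie closest in *Gabpa*, with 0.051 between them.

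*Ets1* and *Ets2* are close relatives that respond to the MAP kinase pathway. *Ets1*, on chromosome 9 of GRCm38 from 32636221 to 32757820 on the plus strand, stood at 10.92, 10.68 and 10.86 log2 CPM in unstimulated samples 1, 2 and 3. With CpG it was at 8.09, 8.44 and 8.24. Every stimulated sample was thus more than 2 log2 units below every unstimulated sample. The means were 10.82 ± 0.13 and 8.26 ± 0.18 (SD, n = 3), a log2FC of -2.56 with a standard error of 0.10 (FDR = 2.86e-08, limma), or 5.91-fold lower. Only 1.83% of the genes tested had a more negative log2FC. *Ets2*, on chromosome 16 from 95702075 to 95721051 on the plus strand, went from 9.15, 8.91 and 8.92 to 7.98, 8.19 and 7.92. All its stimulated samples were below all unstimulated ones, by 0.71 or more. Its log2FC was -0.96 (standard error 0.09, 95% interval -1.16 to -0.76, FDR = 5.01e-06), 1.94-fold lower.

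*Fli1* belongs to the ERG subfamily and acts in megakaryocyte and B cell development. It lies on the minus strand of chromosome 9, from 32422204 to 32542861, next to *Ets1*. Unstimulated samples 1 to 3 had 7.60, 7.60 and 7.74 log2 CPM and stimulated samples 5.90, 6.27 and 6.15, which leaves a gap of 1.33 between the groups. The log2FC was -1.54 (standard error 0.09, FDR = 2.57e-07), 2.91-fold lower, and its 95% interval of -1.75 to -1.33 did not overlap that of *Ets1*, -2.78 to -2.34. Of the 4 megakaryocyte and platelet markers, *Pf4* (log2FC -1.41, FDR = 0.00562) and *Ppbp* (-0.83, FDR = 0.0410) were also called lower. The FDR of *Ppbp* reached 0.187 with a sample left out. *Itga2b* (-0.22, FDR = 0.312) and *Gp9* (0.48, FDR = 0.290) did not pass. The part of these markers in the change of *Fli1* was not tested.

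The genes of the ELF subfamily decreased by similar amounts. *Elf1*, a factor of lymphoid cells on chromosome 14 from 79481194 to 79582494, went from 9.04, 9.12 and 9.13 to 7.98, 8.17 and 8.004 log2 CPM, a log2FC of -1.04 (standard error 0.07, FDR = 4.03e-07). *Elf4*, known for its part in the quiescence of T cells and on chromosome X from 48411046 to 48463132, went from 7.20, 7.11 and 7.17 to 6.07, 6.17 and 6.17, a log2FC of -1.02 (standard error 0.06, FDR = 2.50e-07). *Elf2*, on chromosome 3 from 51252720 to 51340663, had the smallest spread before stimulation, with 6.97, 6.95 and 6.94, and stood at 6.06, 6.10 and 6.17 with CpG. Its log2FC was -0.84 (standard error 0.06, FDR = 7.36e-07), and its 95% interval of -0.97 to -0.71 overlapped those of *Elf1* (-1.20 to -0.89) and *Elf4* (-1.16 to -0.89). Groups were separate in each of the 3 genes, by 0.87, 0.94 and 0.77 for *Elf1*, *Elf4* and *Elf2*. *Elf1* and *Elf4* lie just past a log2FC of -1 and *Ets2* just short of it. Without CpG-stimulated sample 1 the genes lowered past -1 were 3, and without CpG-stimulated sample 2 they were 5.

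PU.1 and Spi-B, the products of *Spi1* and *Spib*, bind the same sites and have overlapping functions in B cells. *Spi1*, on chromosome 2 from 91082390 to 91115756, was at 6.22, 6.23 and 6.18 log2 CPM in unstimulated and 5.28, 5.53 and 5.27 in stimulated samples. The log2FC of -0.85 (standard error 0.08, FDR = 5.93e-06) corresponds to 55.5% of the unstimulated level. Of the 8 myeloid markers 7 also had lower means with CpG. *Cd14* (log2FC -1.73, FDR = 0.00430) and *Csf1r* (-1.61, FDR = 0.0180) were called lower, and *Adgre1*, from 2.34 to 3.16 (FDR = 0.00811), was called higher. Their part in the change of *Spi1* was not tested. *Spib*, on chromosome 7 from 44525993 to 44532071, changed least of the lowered genes. It had 9.79, 9.59 and 9.70 without and 9.18, 9.41 and 9.33 with CpG, and only 0.18 separated the lowest unstimulated from the highest stimulated sample. Its log2FC was -0.39 (standard error 0.08, 95% interval -0.57 to -0.21, FDR = 0.00135), 1.31-fold lower. The difference between sample numbers was wide, with -0.61, -0.18 and -0.37 for numbers 1, 2 and 3.

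The raised genes differed in size of change. *Etv6*, on chromosome 6 from 134035700 to 134270158 on the plus strand, was at 4.66, 4.51 and 4.63 log2 CPM without CpG and reached 5.99, 5.42 and 5.83. Stimulated sample 2 was the lowest of its group but still 0.76 above the highest unstimulated sample. The log2FC was 1.15 (standard error 0.13, FDR = 2.21e-05), 2.21-fold higher. *Gabpa*, which encodes the DNA-binding subunit of GABP, is on chromosome 16 from 84834925 to 84863779. It went from 6.73, 6.53 and 6.60 to 6.94, 6.78 and 6.93, a log2FC of 0.26 (standard error 0.07, 95% interval 0.10 to 0.43, FDR = 0.00843). This change of 1.20-fold was larger than the spread between samples, but it was the smallest of the 10 and lost its call, at an FDR of 0.0545, when every gene in the files was tested.

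Since the groups did not overlap in any of the 10 genes, differences between samples of the same number necessarily had the same sign for all 3 numbers. For *Ets1* they were -2.84, -2.23 and -2.62 and for *Etv6* 1.33, 0.91 and 1.21. Number 2 had the difference nearest to 0 in *Ets1*, *Ets2*, *Fli1*, *Elf1*, *Elf4*, *Spi1*, *Spib* and *Etv6*, and not in *Elf2* and *Gabpa*. The difference of number 3, labeled male, was within the range of numbers 1 and 2, labeled female, in 7 of the 10 genes, all but *Elf1*, *Elf2* and *Gabpa*. In all 7 of these genes number 2 was the nearest to 0. These counts were not made over all genes tested, so they cannot be read as a trait of the ETS genes. Erythroid markers were highest in number 2 of both groups, and their part in these differences was not tested. With 1 number labeled male, sex and sample number cannot be told apart.

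Promoter sequences are shown for the genes with a single start window in the RefSeq table (GRCm38.p6), since the set holds genes that moved in both directions. The windows run from 250 bases before to 50 after the annotated start, and 7 of the 10 genes matched, 4 of them with 1 window. GGAA, the core of ETS sites, is in capitals on either strand, so that TTCC marks the core on the opposite strand. *Gabpa* and *Etv6* were raised, and *Ets2* and *Spib* lowered. The windows are chr16:84834874-84835173 (plus strand), chr6:134035450-134035749 (plus), chr16:95702157-95702456 (plus) and chr7:44532022-44532321 (minus).
Gabpa: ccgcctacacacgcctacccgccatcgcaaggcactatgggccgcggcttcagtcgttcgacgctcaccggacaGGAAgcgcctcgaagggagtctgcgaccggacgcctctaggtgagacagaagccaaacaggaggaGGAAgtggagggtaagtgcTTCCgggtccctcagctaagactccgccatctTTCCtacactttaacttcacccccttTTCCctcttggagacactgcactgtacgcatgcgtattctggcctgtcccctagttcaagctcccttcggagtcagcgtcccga
Etv6: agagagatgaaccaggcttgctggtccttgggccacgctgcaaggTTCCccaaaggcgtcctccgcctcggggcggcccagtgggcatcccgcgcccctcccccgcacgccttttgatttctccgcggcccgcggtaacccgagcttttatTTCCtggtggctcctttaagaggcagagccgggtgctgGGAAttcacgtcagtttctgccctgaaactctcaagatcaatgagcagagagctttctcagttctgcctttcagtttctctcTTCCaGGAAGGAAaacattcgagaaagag
Ets2: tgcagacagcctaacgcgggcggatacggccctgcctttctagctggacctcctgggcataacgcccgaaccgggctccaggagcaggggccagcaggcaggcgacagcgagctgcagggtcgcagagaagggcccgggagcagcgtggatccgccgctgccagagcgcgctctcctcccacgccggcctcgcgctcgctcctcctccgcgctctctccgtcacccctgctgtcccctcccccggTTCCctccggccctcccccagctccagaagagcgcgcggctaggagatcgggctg
Spib: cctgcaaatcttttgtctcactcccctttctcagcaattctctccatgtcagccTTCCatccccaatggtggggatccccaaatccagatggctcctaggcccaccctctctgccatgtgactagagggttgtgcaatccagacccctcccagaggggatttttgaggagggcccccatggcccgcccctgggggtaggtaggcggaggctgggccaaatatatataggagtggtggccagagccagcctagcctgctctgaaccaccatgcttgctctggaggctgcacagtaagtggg

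Among these 4 windows those of the raised genes held more ETS cores, 5 in *Gabpa* and 6 in *Etv6* against 1 each in *Ets2* and *Spib*. The median of all 32851 windows was 3, and 96% of them held at least 1, so the core itself is common. The lowered genes with 2 windows held from 1 to 8 cores in a window (8 in a window of *Elf4* and 6 in a window of *Elf2*), so the number of cores did not follow the direction of change over all windows. Other letters were searched on both strands. CCGGAAG, a longer ETS site that contains the core, was found in *Gabpa*, 93 bases before the start on the minus strand, and in 8.86% of all windows. GAGGAAG, the core of PU.1 sites, was found in *Gabpa* as well, 113 bases before the start, and in 13.6% of all windows. TGANTCA, a pattern wider than the AP-1 site TGA(C/G)TCA, was in 7.81% of all windows. It was in windows of *Elf1* (as TGACTCA), *Elf4* (TGAGTCA) and *Elf2* (TGATTCA, which is outside the narrower form). GGAANNGAAA, the ETS-IRF composite site, was in none of the 10 member windows and in 2.72% of all, and the NF-κB consensus was in *Spib* only, at a stretch that matches on both strands, and in 4.51% of all windows. TATAAA, a form of the TATA box, was in 13.6% of all windows. It was in windows of *Elf1*, 46 and 227 bases before their starts, and of *Elf2*, 207 bases before. Other forms were not searched, and the *Spib* window shown holds the letters tatata. A match of letters is a description and not a binding site.

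**Figure D2:**
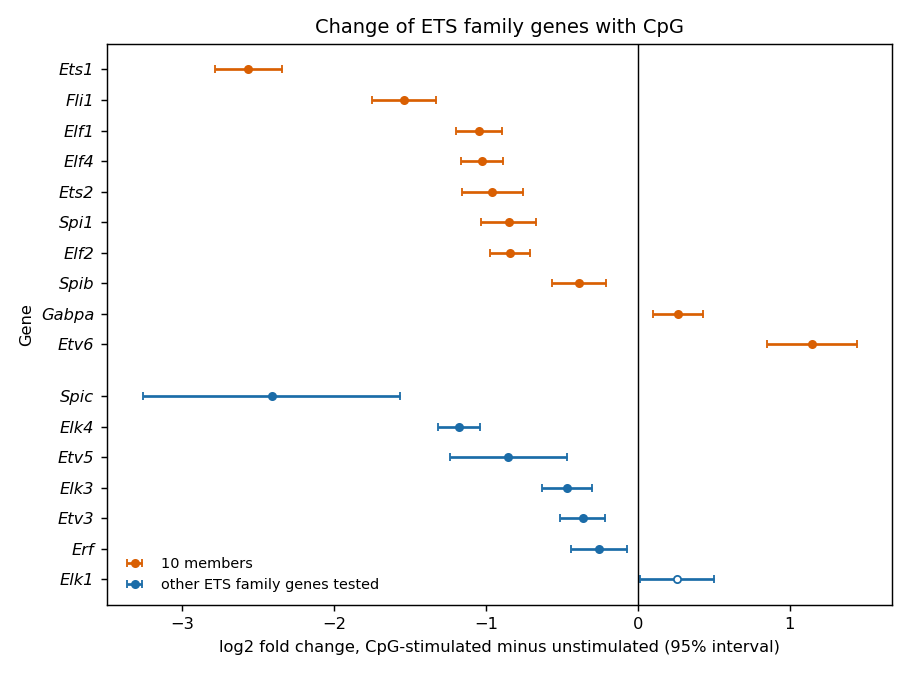
Log2FC of the 10 ETS genes and of the 7 other family genes that could be tested (horizontal axis, CpG-stimulated minus unstimulated), by gene (vertical axis); points are estimates from limma, bars their 95% intervals, and open points did not pass an FDR of 0.05. Intervals of 14 genes lie under 0, led by *Ets1* at -2.56, and *Etv6*, *Gabpa* and *Elk1* are the genes above 0.

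The rest of the family was examined from a list of 17 genes, of which 16 were in the files and 7 had at least 10 reads' worth in 3 samples. Of these 7 genes, 6 were lower with CpG and 0 higher, where 36.7% and 37.6% of all genes tested were. Without *Spic*, which is described last, 5 of 6 were lower. The ternary complex factors, which work with SRF at serum response elements, did not move together. *Elk4* had means of 7.74 ± 0.04 and 6.57 ± 0.08 (SD, n = 3), and its log2FC was -1.18 (standard error 0.06, FDR = 1.14e-07, limma). *Elk3* decreased by 0.47 on the log2 scale (FDR = 0.000242). *Elk1* had a log2FC of 0.26 that did not pass (FDR = 0.0533), but passed with the sample number as a block (FDR = 0.0269). Of the PEA3 subfamily *Etv5* was the gene tested and decreased by 0.85 on the log2 scale (standard error 0.17, FDR = 0.00121). *Etv3* and *Erf*, which encode repressors, decreased by 0.36 and 0.26 (FDR = 0.000682 and 0.0180). The call of *Erf* was lost with no filter on low values (FDR = 0.0980), without unstimulated sample 1 (FDR = 0.0757), without CpG-stimulated sample 1 (0.0512) and without CpG-stimulated sample 3 (0.0690).

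*Spic*, the third gene of the SPI subfamily, known from red pulp macrophages and also expressed in B cells, was at 1.04, 1.53 and 1.63 log2 CPM before stimulation. It was at -1.77, -0.87 and -0.40 with CpG, of which the lower 2 are under the value of 10 reads, -0.76. This gave a log2FC of -2.41 (FDR = 0.000219) on few reads, with the widest standard error of the family, 0.38. The gene entered the test through its unstimulated values, and it was not tested where 10 reads' worth was required in all 6 samples. Of the 8 myeloid markers 7 had lower means with CpG, with *Cd14* and *Csf1r* called lower and *Adgre1* called higher, and their part in the values of *Spic* was not tested. The 9 other listed genes were not tested, and *Erg*, *Fev*, *Etv1*, *Etv4*, *Elf3*, *Elf5*, *Ehf*, *Etv2* and *Spdef* all had group means under the value of 10 reads. *Etv3l* was not matched. Over the whole family, 14 of 17 tested genes were lower, 2 were higher and 1 did not pass, and without *Spic* 13 of 16 were lower. Of all genes tested 36.7% were called lower and 37.6% higher.

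Levels of different genes were compared per kb of annotated exon (GENCODE M21, union of all transcripts). Before stimulation *Spib* had the highest log2 CPM per kb, at 8.17 ± 0.10 (SD, n = 3), ahead of *Ets1* at 7.74 ± 0.13. *Ets2* (6.46) and *Elf1* (6.34) followed and overlapped each other, and then came *Fli1* (5.84), *Spi1* (4.78), *Elf4* (4.54), *Gabpa* (4.11), *Elf2* (3.69) and *Etv6* (2.02), each apart from the next. With CpG *Spib* remained first at 7.78 ± 0.12, now more than 2 log2 units above the next gene. *Ets2* (5.50), *Elf1* (5.30) and *Ets1* (5.17) formed a run in which neighbors overlapped. *Gabpa* (4.37) and *Fli1* (4.30) were the next overlapping pair, followed by *Spi1* (3.93) and *Elf4* (3.52), and *Etv6* (3.16) overlapped *Elf2* (2.85) at the end. In terms of place, *Ets1* went from the second to the fourth gene and *Gabpa* from the eighth to the fifth.

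**Figure D3:**
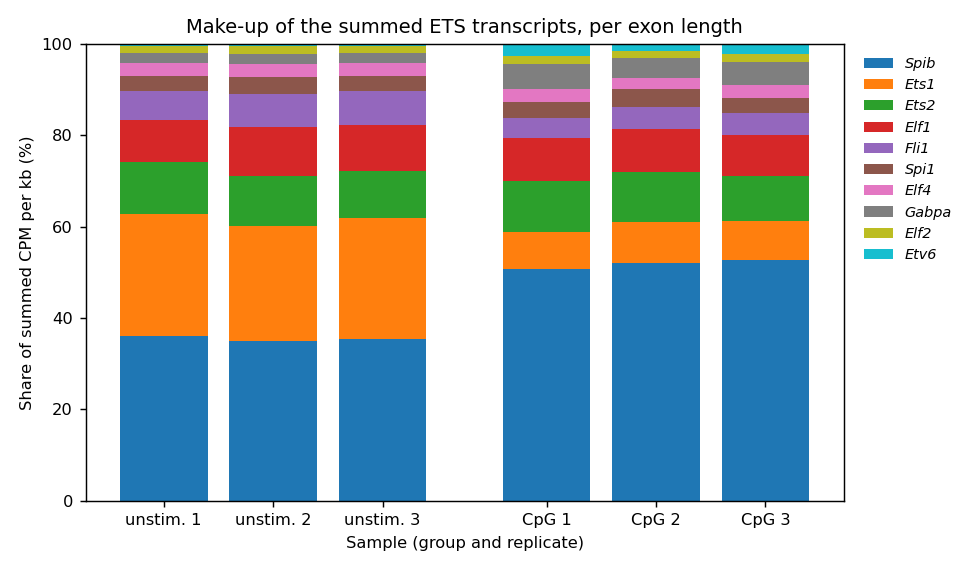
Share of each ETS gene in the summed CPM per kb of the 10 genes (vertical axis, percent), for each sample (horizontal axis, group and replicate number); bars are stacked to 100%. *Ets1* takes 26.2% on average without and 8.49% with CpG, and *Spib* 35.5% and 51.9%.

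The sum of the 10 genes was 815 ± 45.8 CPM per kb in unstimulated and 426 ± 29.8 in stimulated samples (SD, n = 3). Without *Ets1* the sums were 601 ± 27.5 and 390 ± 25.3, and were lower with CpG in every sample as well. The make-up of this sum changed as well. *Ets1* held 26.8%, 25.2% and 26.6% in unstimulated samples 1 to 3 and 8.08%, 9.01% and 8.39% in stimulated ones, while *Spib* went from 36.0%, 35.0% and 35.4% to 50.8%, 52.0% and 52.8%. The share of *Gabpa* went from 2.12% to 4.90% and that of *Etv6* from 0.497% to 2.16%. *Ets2* (10.8% and 10.7%), *Elf1* (10.0% and 9.27%), *Elf4* (2.86% and 2.69%) and *Spi1* (3.38% and 3.59%) changed little in share, and their groups overlapped except in *Elf4*.

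Ratios within a sample do not depend on a scaling factor per sample. They can depend on quantile normalization, which acts by rank, where genes differ in level. Such ratios were compared per kb for 6 pairs of genes. No pair could pass 0.05, as 0.1 is the lowest p of a two-sided exact permutation test with this many samples. *Ets1* exceeded *Ets2* by 1.28 ± 0.10 on the log2 scale without CpG, a ratio of 2.43, and was 0.33 ± 0.11 below it with CpG, a ratio of 0.797 (SD, n = 3; exact permutation p = 0.1). The order of these genes was therefore opposite in all 3 samples of each group. *Spib* exceeded *Spi1* 10.5-fold before and 14.4-fold after stimulation (3.39 ± 0.11 and 3.85 ± 0.10 log2 units, exact permutation p = 0.1). The difference between *Fli1* and *Ets1* went from -1.89 ± 0.13 to -0.87 ± 0.05, and that between *Etv6* and *Gabpa* from -2.09 ± 0.05 to -1.21 ± 0.21 (exact permutation p = 0.1 for both). *Elf1* and *Elf2* differed by 2.65 ± 0.07 and 2.45 ± 0.12 (exact permutation p = 0.1). The ratio of *Elf1* to *Elf4* was 3.49 without and 3.44 with CpG, with a change of -0.019 on the log2 scale that lay within the spread between samples (exact permutation p = 0.7). Adjusted over the 6 pairs by the Benjamini-Hochberg method, the values of 0.1 become 0.12 and that of 0.7 stays.

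*Fli1* and *Ets1*, the genes with the largest decreases among the 10, are neighbors on chromosome 9. Their starts face each other across 93.4 kb, and in the files no other gene lies between them. *Kcnj1*, on the other side of *Fli1* at 23.0 kb, had a log2FC of -0.56 (standard error 0.42) that did not pass (FDR = 0.252, limma). *Bcorl1*, 3.0 kb from *Elf4*, increased by 1.41 (FDR = 1.72e-05), *Mybpc2*, 1.3 kb from *Spib*, by 1.15 (FDR = 4.24e-06), and *Pold1*, 0.7 kb from *Spib*, fell by 0.25 on the log2 scale (FDR = 0.0372). *Sugt1*, 5.2 kb from *Elf1*, and *Mybpc3*, 2.4 kb from *Spi1*, did not pass (log2FC -0.17 and 0.55, FDR = 0.0985 and 0.149). *Mir155*, 121 kb from *Gabpa*, had the largest change within 200 kb of any member, from a mean of -1.62 to 2.88 log2 CPM and a log2FC of 4.50 (standard error 0.32, FDR = 7.81e-07). Its unstimulated mean is under the value of 10 reads, -0.76, so the size of its change rests on few reads. Its microRNA is known to target *Spi1* mRNA. Reads counted on this row come from the primary transcript, as the libraries were made from mRNA, and mature miR-155 was not measured. These neighbors were chosen after their values were seen.

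The spans of some members overlap genes on the opposite strand. *Gabpa* shares 701 bases with *Atp5j*, which increased by 0.58 (FDR = 7.11e-05), and *Elf1* shares 327 bases with *Wbp4*, which increased by 0.32 (FDR = 0.00225). *Elf2* spans 4930577N17Rik (log2FC 0.41, FDR = 0.0332). The libraries were stranded, but the sources do not state whether counting used the strand, so reads from these stretches cannot be assigned with certainty. For *Gabpa* the overlapping gene moved the same way, and for *Elf1* and *Elf2* the opposite way.

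**Figure D4:**
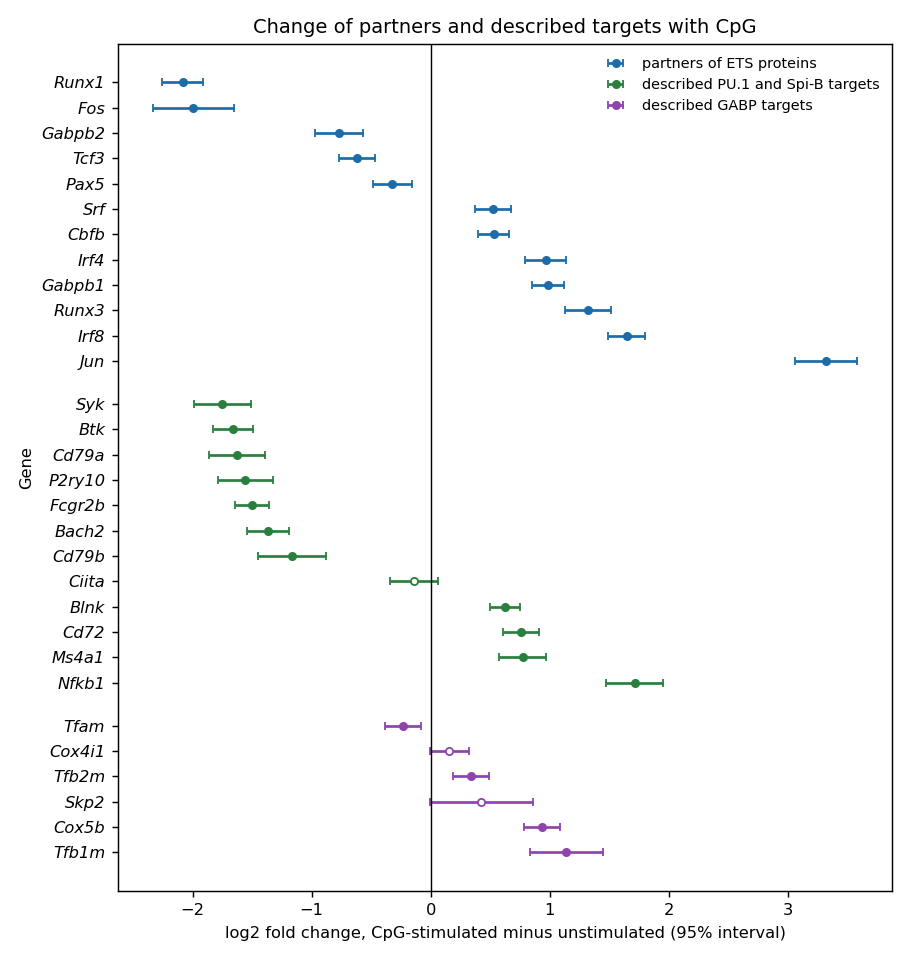
Log2FC of 12 partners of ETS proteins, 12 described PU.1 and Spi-B targets and 6 described GABP targets (horizontal axis, CpG-stimulated minus unstimulated), by gene (vertical axis); points are estimates from limma, bars their 95% intervals, and open points did not pass an FDR of 0.05. Partners range from *Runx1* at -2.08 to *Jun* at 3.32, and PU.1 and Spi-B targets from *Syk* at -1.75 to *Nfkb1* at 1.71.

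Of 12 listed partners of ETS proteins, 7 were higher and 5 lower with CpG (37.6% and 36.7% of all genes tested), with a median log2FC of 0.53. *Irf4* and *Irf8*, the partners of PU.1 and Spi-B, both increased while *Spi1* and *Spib* decreased. *Irf8* went from 9.18 ± 0.09 to 10.83 ± 0.06 (SD, n = 3; log2FC 1.65, FDR = 4.05e-08) and *Irf4* from 10.20 ± 0.08 to 11.17 ± 0.11 (0.97, FDR = 1.79e-06). The genes of the GABP β subunits moved apart. *Gabpb1*, which provides the activation domain, rose from 6.07 ± 0.05 to 7.06 ± 0.03 (log2FC 0.99, FDR = 2.66e-07), and *Gabpb2* decreased from 7.27 ± 0.12 to 6.50 ± 0.15 (-0.77, FDR = 2.63e-05).

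Runx factors bind beside Ets1. *Runx1* decreased with *Ets1*, from 6.25 ± 0.05 to 4.16 ± 0.09 log2 CPM (log2FC -2.08, FDR = 2.15e-08, limma), whereas *Runx3* increased from 6.42 ± 0.11 to 7.74 ± 0.14 (1.32, FDR = 3.73e-07) and their common subunit *Cbfb* by 0.53. *Pax5*, which recruits Ets1 to the *Cd79a* promoter, decreased by 0.32 on the log2 scale (FDR = 0.00240), and *Tcf3*, which encodes E2A, by 0.62. *Srf*, the partner of the Elk proteins, increased by 0.52 (FDR = 5.44e-05). The AP-1 genes moved far in opposite directions, with a log2FC of 3.32 for *Jun* (standard error 0.12) and -1.99 for *Fos* (standard error 0.15).

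Among 12 genes described as bound or controlled by PU.1 or Spi-B in B cells, 7 decreased, 4 increased and 1 did not pass (36.7% and 37.6% of all genes tested were called lower and higher), and the median log2FC was -1.27. All 7 decreased by more than 1 on the log2 scale, where 15.3% of all genes tested were called lower past that size. They included the kinases of B cell receptor signaling, *Syk* (9.83 ± 0.17 to 8.08 ± 0.19, log2FC -1.75) and *Btk* (7.69 ± 0.11 to 6.03 ± 0.09, -1.66), and the signaling chains of the receptor, *Cd79a* (-1.63) and *Cd79b* (-1.17). *P2ry10*, which encodes a lipid receptor, decreased by 1.56 and *Bach2*, a repressor of plasma cell differentiation, by 1.37. *Fcgr2b*, the inhibitory Fc receptor, went from 6.61 ± 0.02 to 5.12 ± 0.06. *Nfkb1* rose from 9.56 ± 0.11 to 11.27 ± 0.21 (log2FC 1.71, FDR = 3.05e-07), *Ms4a1*, which encodes CD20, by 0.77, *Cd72* by 0.76 and the adaptor gene *Blnk* by 0.63. *Ciita* had a log2FC of -0.14 that did not pass (FDR = 0.184), but passed with the sample number as a block (FDR = 0.0421). Genes of this list are also under other factors, and whether ETS proteins took part in these changes was not tested.

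Of 6 genes described as controlled by GABP, 3 increased, 1 decreased and 2 did not pass, with a median log2FC of 0.38. Over all genes tested 37.6% were called higher and 36.7% lower. *Tfb1m*, a methyltransferase of mitochondrial ribosomal RNA, rose from 1.99 ± 0.11 to 3.14 ± 0.13 log2 CPM (SD, n = 3; log2FC 1.14, FDR = 3.32e-05), *Cox5b*, a subunit of cytochrome c oxidase, by 0.94 (FDR = 8.07e-07) and *Tfb2m* by 0.34 (FDR = 0.00115). *Tfam*, the mitochondrial transcription and packaging factor, fell by 0.23 on the log2 scale (FDR = 0.0115). Without unstimulated sample 2 the call of *Tfam* was lost (FDR = 0.0562). *Cox4i1* (log2FC 0.16, FDR = 0.0759) and *Skp2* (0.43, FDR = 0.0686) did not pass. *Cox4i1* passed with the sample number as a block (FDR = 0.0185) and without CpG-stimulated sample 1 (0.0495), and *Skp2* with eBayes without trend (0.0297) and without CpG-stimulated sample 2 (0.0298).

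Genes outside the family whose pattern was nearest to that of a member were found by the root mean square difference of the 6 values, each gene first centered on its own mean, over 11223 genes. For *Ets1* they were *Ap3m2* (difference 0.079 log2 units), *Snx30* (0.093) and *Fam65a* (0.096), with log2FC values of -2.50, -2.46 and -2.47. For *Fli1* they were *Hdac10* (0.039), *Rasgrp1* (0.041) and *Limd2* (0.044). *Rasgrp1* encodes an activator of Ras in lymphocytes, and it went from 6.44 to 4.88 log2 CPM. *Etv6* was nearest to *Tyw3* (0.058), *Usp49* (0.058) and *Utp20* (0.060), and *Gabpa* to *Xpc* (0.025), *Mbnl3* (0.026) and *Zbtb9* (0.027). With 6 samples in 2 groups such likeness mostly follows the log2FC.

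Because quantile normalization gave the samples near-equal distributions, every log2FC is relative to the other genes, and a shift of all transcripts together would not show. The deposited values carry no per-sample depth. The level of genes without reads corresponds to a library of 17.8 M reads, and the lowest member value, 4.51 for *Etv6*, is far above the value of 10 reads.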

How the data were processed

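RNA-seq values of 6 samples were used, 3 CpG-stimulated and 3 unstimulated. Per the labels and methods, the authors trimmed reads with Trim Galore 0.6.5, aligned them to mm10 with STAR 2.6.1a, counted them per gene with featureCounts (Subread 2.0.1), and used quantile normalization with voom. They deposited log2 CPM, with 1 file per sample. The annotation used for counting is not given in the sources used here. No raw counts were used.

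The log2 values were tested as deposited with limma 3.58.1 in R 4.3.3 (lmFit, eBayes with trend), over the 11233 genes that exceeded the level of 10 reads (-0.76) in 3 or more samples, with Benjamini-Hochberg adjustment over all of them. Groups and numbers came from sample titles. Samples of the same number deviated together from their group means (correlations over genes of 0.435, 0.224 and 0.300, and between -0.281 and 0.0279 for the others). The number was therefore used as a block in an alternative. Where this likeness by number comes from is not stated. Some genes near the level of no reads had the same values by number in both groups. *Nkg7* was at -5.27, -5.415 and -4.771 log2 CPM for numbers 1 to 3, and *Fev* at -5.069, -5.318 and -5.069. Whether the values were adjusted by number beyond quantile normalization is not stated. Its part in the correlations and in the spread behind the p values was not tested.

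Members, gene lists and tests were chosen with earlier results of these data known. All members are named, and other genes from the fixed lists; for the 2 most raised and 2 most lowered members the 3 genes nearest in pattern are named. The procedure was tested on simulated data. Positions and exon lengths are from GENCODE M21 (GRCm38). Alternatives covered the filter, the block, the scale as log2(CPM + 1), the variance model, median centering and each sample left out.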

Additional observations from a re-analysis of the deposited data

How the results depend on the processing

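Under 13 alternatives all 10 members kept their direction, and 129 of 130 log2FC values kept their call. The exception was *Gabpa* with no filter, where its FDR from limma was 0.0545 at a log2FC of 0.26, so that 1 member instead of 2 was raised. That setting tests more genes and also fits the variance model over them, and the reason for the lost call was not tested. Over its alternatives the FDR of *Gabpa* from limma ran from 0.000688 to 0.0545. *Ets1* stayed between -2.66 and -2.48, *Fli1* between -1.62 and -1.44 and *Etv6* between 1.03 and 1.31. Lowered members were 8 under every alternative. Of 130 counts of members and listed genes, 124 stayed within 1.5 times. With the replicate block the other ETS family genes raised were 1 (*Elk1*) instead of 0, as with robust eBayes, and 0 to 1 with each sample left out; 1 was found without unstimulated replicate 1 and without CpG-stimulated replicate 2. GABP targets lowered were 0 to 1 with each sample left out, and 0 (*Tfam*) without unstimulated replicate 2. The block also gave *Ciita* and *Cox4i1* a call and changed no other call among members and listed genes. Other ETS family genes lowered were 5 instead of 6 with no filter (*Erf*) and with 10 reads' worth in all 6 samples (*Spic* not tested), and 5 to 6 with each sample left out. GABP targets raised were 4 instead of 3 with the block (*Cox4i1*) and with eBayes without trend (*Skp2*). The cause was not tested. Median centering and log2(CPM + 1) changed no member's call. With 3 samples per group, counting error and depth per sample are not known from these values, and genes near 10 reads' worth, such as *Spic*, are the least precise.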
